A study of Mus musculus with 12 samples.

Results

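The Cyp2c family of cytochrome P450 enzymes was described in mouse liver through 10 genes: Cyp2c29, Cyp2c37, Cyp2c38, Cyp2c39, Cyp2c40, Cyp2c44, Cyp2c50, Cyp2c54, Cyp2c55 and Cyp2c70. They were chosen as a gene family, and the family was selected on the measured Mdr2 difference of Cyp2c39, whose signal was over 20-fold higher with loss of Mdr2, so that all values of Mdr2 loss are given as a description, without a test. Of the 10 genes, 9 had a transcript cluster (the set of probes that the array reads as 1 transcript) of their own, among 19938 genes with such a cluster. Cyp2c40 was read only by a cluster shared by 4 genes, and Cyp2c44 was found under its other name Cyp2c23. Of the 9, 8 passed the filter on low signals (above the 40th percentile of an array in at least 3 arrays), among 13977 genes tested. Cyp2c38 did not pass it.

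Total RNA of liver from mice aged 2 weeks was measured on 12 Affymetrix arrays, 3 for each of 4 genotypes, lettered A, B and C. Stat3Fl/Fl mice carry loxP-flanked (floxed) Stat3 alleles, and Stat3Δhc livers are labelled as Stat3 knockout. Stat3Fl/FlMdr2-/- and Stat3Δhc Mdr2-/- mice carry the same Stat3 alleles on a knockout of Mdr2, which is the gene Abcb4. All 4 groups share the floxed or deleted Stat3 allele, and no group with wild-type Stat3 was analysed here. The Cre driver, the strain, the sex and whether each array is a separate animal are not given in the sources used here, so the p-values measure the spread between these arrays, which may be technical. Stat3 carries interleukin and growth hormone signals to the nucleus of hepatocytes, and Mdr2 moves phospholipid into bile, so that its loss exposes the bile ducts to unshielded bile acids. The study set out to find pathways tied to cholestasis and bile acid injury in the Stat3Δhc Mdr2-/- mice.

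Members of the CYP2C subfamily are membrane-bound haem enzymes of the endoplasmic reticulum that take electrons from P450 reductase. They oxidise drugs, steroids and fatty acids, and most mouse members turn arachidonic acid into epoxides or hydroxy acids that act as signals. In liver they are made mainly by hepatocytes, and several are controlled by the nuclear receptors CAR and PXR, by HNF4 and FOXA factors, and by growth hormone. Cyp2c39 also hydroxylates retinoic acid, and Cyp2c70 makes the muricholic acids that set mouse bile apart from human bile.

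In RefSeq's order along chromosome 19, the genes of the cluster that had a transcript cluster of their own were Cyp2c55, Cyp2c65, Cyp2c66, Cyp2c29, Cyp2c39, Cyp2c38, Cyp2c67, Cyp2c68, Cyp2c37, Cyp2c54, Cyp2c50 and Cyp2c70. The order is that of the lowest coordinate of each gene. RefSeq's span of Cyp2c39 (39347346 to 39569568) contains that of Cyp2c38 (39389556 to 39463103). Cyp2c40 lies between Cyp2c38 and Cyp2c37, and Cyp2c44 lies apart from the others on the same chromosome. RefSeq's promoter windows (250 bases before to 50 after the start, GRCm38.p6) covered 8 of the 10 members in 9 windows, with 2 starts for Cyp2c39. The 4 windows printed here are both starts of Cyp2c39, the gene with the largest Mdr2 difference, Cyp2c38, whose window was the nearest to it in sequence, and Cyp2c70, whose signal varied least between genotypes. Capitals mark the FOXA motif TGTTTAC and the HNF4 motif CAAAGTCCA, both searched on both strands. The windows are chr19:39347096-39347395 (plus strand) and chr19:39510572-39510871 (plus strand) for the starts of Cyp2c39, chr19:39463026-39463325 (minus strand) for Cyp2c38 and chr19:40187237-40187536 (minus strand) for Cyp2c70, each written 5′ to 3′ along its gene.
Cyp2c39 start 1: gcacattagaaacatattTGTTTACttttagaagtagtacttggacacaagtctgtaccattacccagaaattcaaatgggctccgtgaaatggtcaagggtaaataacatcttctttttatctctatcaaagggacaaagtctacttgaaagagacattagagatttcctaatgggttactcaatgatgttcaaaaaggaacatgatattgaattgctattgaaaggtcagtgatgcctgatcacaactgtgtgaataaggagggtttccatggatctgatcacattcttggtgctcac
Cyp2c39 start 2: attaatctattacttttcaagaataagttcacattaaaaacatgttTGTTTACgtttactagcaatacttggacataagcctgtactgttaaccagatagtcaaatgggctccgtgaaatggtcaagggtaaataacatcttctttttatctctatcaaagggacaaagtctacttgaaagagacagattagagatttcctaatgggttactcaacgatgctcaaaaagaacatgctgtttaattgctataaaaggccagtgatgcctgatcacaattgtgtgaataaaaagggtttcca
Cyp2c38: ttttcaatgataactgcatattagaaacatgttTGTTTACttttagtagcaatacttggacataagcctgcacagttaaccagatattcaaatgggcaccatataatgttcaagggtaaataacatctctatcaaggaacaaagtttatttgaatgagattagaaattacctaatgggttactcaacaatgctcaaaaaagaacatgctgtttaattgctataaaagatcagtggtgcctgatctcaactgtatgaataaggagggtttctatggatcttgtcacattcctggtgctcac
Cyp2c70: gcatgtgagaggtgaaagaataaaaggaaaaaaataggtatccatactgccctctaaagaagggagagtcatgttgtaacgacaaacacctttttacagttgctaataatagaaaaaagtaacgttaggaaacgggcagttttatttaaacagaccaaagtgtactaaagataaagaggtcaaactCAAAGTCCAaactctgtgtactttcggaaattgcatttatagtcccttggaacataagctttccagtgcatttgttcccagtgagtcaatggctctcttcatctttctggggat

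Between start 1 of Cyp2c39 and Cyp2c38, 246 bases matched, which is 82% of the window length, and between the starts of Cyp2c39 81.7% matched. The window of Cyp2c29, the next gene in the cluster, matched start 1 of Cyp2c39 over 79% of its length. Cyp2c37 and Cyp2c50 had the most similar windows of different genes, at 88%, and Cyp2c70 matched the other windows over 53.3 to 55.7%. TGTTTAC was present in 3 of the 9 member windows, those of Cyp2c38 and both starts of Cyp2c39, with its first base at offset -217, -232 and -204 from the start, and in 3.65% of 32851 promoter windows of the same length. These 3 windows are close copies of each other and do not count as separate occurrences. CAAAGTCCA was present in the windows of Cyp2c70 and Cyp2c40 and in 0.475% of all windows. The STAT motif TTCNNNGAA was in 0 of the 9 windows and in 8.3% of all windows, which says only that these letters are not in these windows. The C/EBP motif TTGCNNAA was in 2 (10.8% of all), the nuclear receptor half-site AGGTCA in 3 (16.3%) and TATAAA in 6 (13.6%). A match describes letters, not a bound site.

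Signals are log2 values, so that 1 unit is a doubling, and they are compared between genotypes within a gene, not between genes. The genotype of each array was read from its title, which the description and genotype fields repeat. A further field, the source name, exchanges both Mdr2-/- genotypes, and under it the sign of every Stat3 difference on the knockout would turn. Stat3 followed the titles on each of the 12 arrays (9.19 to 9.54 against 7.69 to 8.12), as did Abcb4 (10 to 10.28 against 8.87 to 9.36 in Mdr2-/-). Xist was high (11.27 to 11.34) in 4 arrays, the 3 of Stat3Fl/FlMdr2-/- and array A of Stat3Δhc Mdr2-/-, and low (3.78 to 4.79) with high Y-linked Eif2s3y in the other 8. The mean of 14 skeletal muscle genes was 8.4 to 9.14 in the 6 arrays without the Mdr2 knockout and 5.37 to 5.82 in the 6 with it. The mean of 11 exocrine pancreas genes was 5.53 to 9.96 against 5.33 to 5.78, and that of 12 hepatocyte genes 12.22 to 12.65 against 12.01 to 12.33. The part of these differences in the Cyp2c values was not tested, except where a value is given. In whole liver, fewer cells of a type and less RNA per cell cannot be told apart. Cyp2c genes are close copies of each other, and whether probes of 1 member also bind another was not examined, so each value is that of its cluster.

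Cyp2c39 was lowest in Stat3Fl/Fl and stood far higher in both Mdr2-/- genotypes. Its signal in arrays A, B and C was 5.85, 5.06 and 5.39 in Stat3Fl/Fl, 6.61, 6.38 and 6.39 in Stat3Δhc, 10, 10.4 and 10.49 in Stat3Fl/FlMdr2-/-, and 11.97, 11.03 and 10.01 in Stat3Δhc Mdr2-/-. All 6 Mdr2-/- arrays lay above all 6 others, Stat3Δhc lay above Stat3Fl/Fl, and the Mdr2-/- genotypes overlapped each other. With Mdr2 loss the mean was higher by 4.86 (SE 0.36) in floxed liver, a 29.1-fold difference, and by 4.54 (SE 0.36) in Stat3Δhc liver, a 23.3-fold difference. Ranked by the log2 difference among 13977 genes, Cyp2c39 was at place 3 in floxed and place 1 in Stat3Δhc liver. It would also have passed the filter on low signals without the Mdr2-/- arrays, at percentiles of 55.7 to 59.7 in Stat3Δhc and 46.2 in array A of Stat3Fl/Fl. In floxed liver 3 genes (0.0215% of those tested) and in Stat3Δhc liver 1 gene (0.00715%) were at least 20-fold higher. Those of floxed liver were Xist (log2 difference 6.82), the transporter Slco1a1 (5.15), which is listed below as male-biased in adults, and Cyp2c39. Next among the tested members were Cyp2c50 in floxed liver at 2.13-fold and Cyp2c54 in Stat3Δhc liver at 2.05-fold. The 20-fold line is the one on which Cyp2c39 was selected. Arrays B and C of Stat3Δhc Mdr2-/- share their low Xist with the Stat3Δhc arrays, and without array A the difference there was 4.06. In floxed liver the Xist pattern and the Mdr2 genotype cannot be told apart, and with the pattern as a covariate, which rests on array A against arrays B and C of Stat3Δhc Mdr2-/-, the difference was 3.41.

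**Figure D1:**
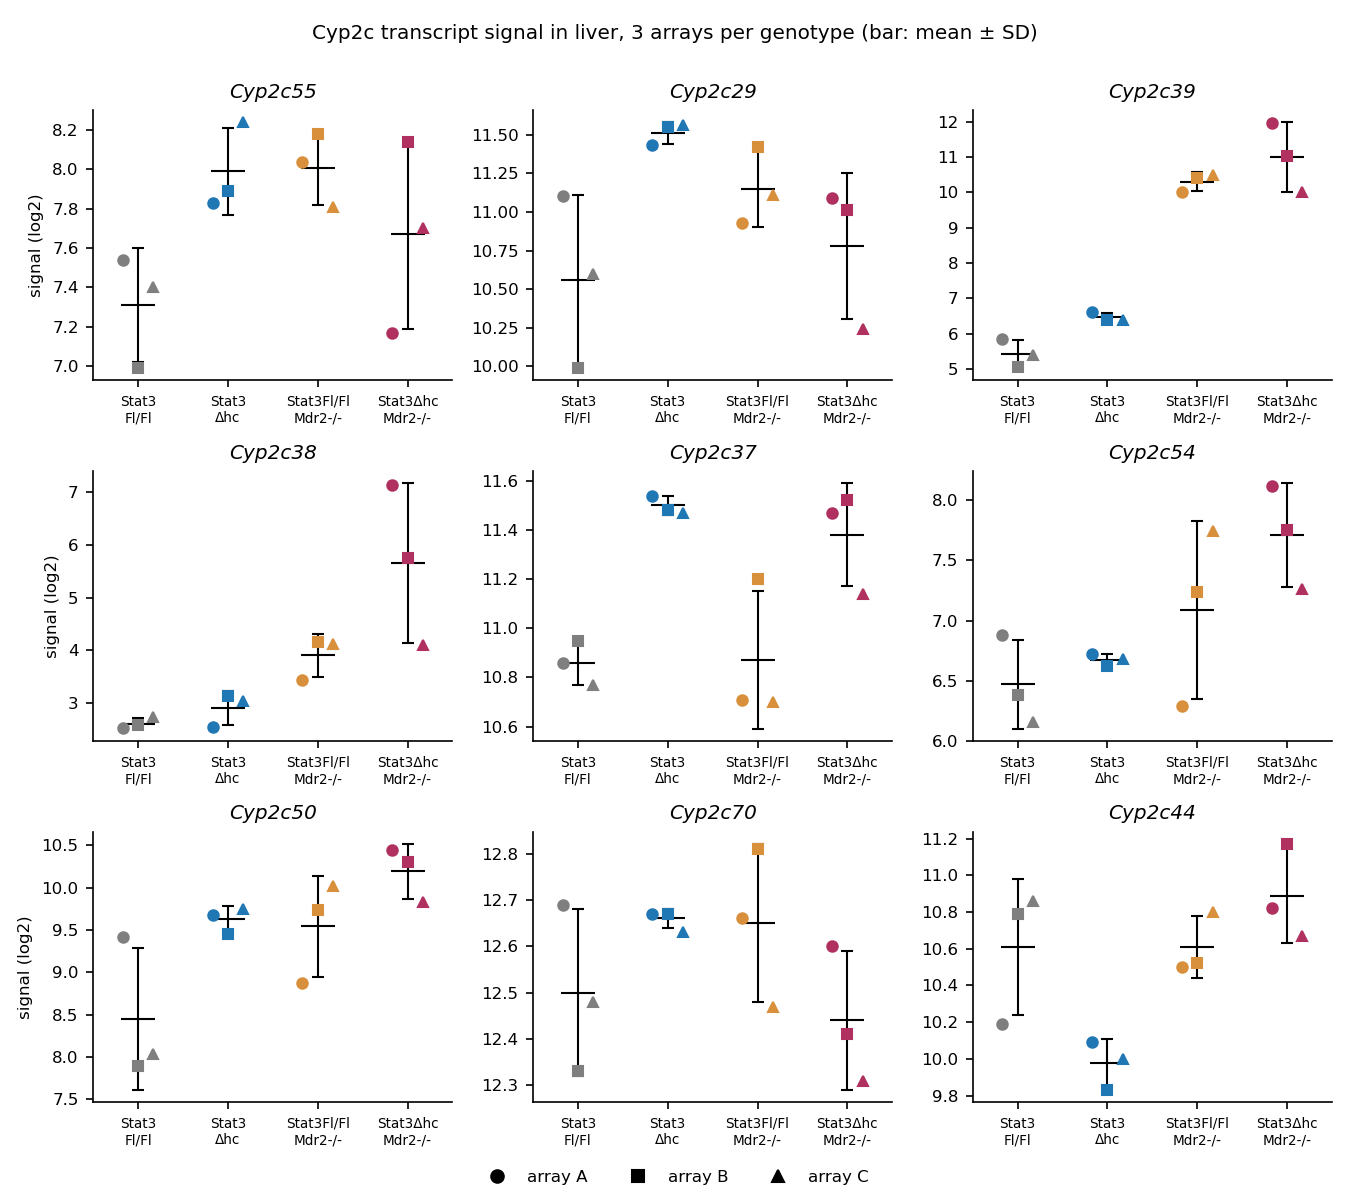
Log2 signal (vertical axis, scaled for each gene) of the 9 measured Cyp2c genes in the 4 genotypes (horizontal axis), with 3 arrays each as points and the mean ± SD as bars. Cyp2c39 lies between 5.06 and 6.61 without the Mdr2 knockout and between 10 and 11.97 with it, while Cyp2c70 stays between 12.31 and 12.81.

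Cyp2c38, an arachidonic acid epoxygenase and the neighbour of Cyp2c39, was near the lower end of the array scale in most arrays. It read 2.53, 2.59 and 2.73 in Stat3Fl/Fl, 2.55, 3.14 and 3.04 in Stat3Δhc, 3.44, 4.16 and 4.13 in Stat3Fl/FlMdr2-/-, and 7.13, 5.76 and 4.1 in Stat3Δhc Mdr2-/-. In 10 arrays this was below the lower quartile of the array, and it was above it in arrays A and B of Stat3Δhc Mdr2-/-. The 6 Mdr2-/- arrays lay above the 6 others here too. In a fit of all 19938 genes without the filter, the Mdr2 difference was 1.3 (SE 0.51) in floxed and 2.75 (SE 0.51) in Stat3Δhc liver. The Stat3 difference on the knockout was 1.75 (SE 0.51, adjusted p = 0.0799, limma with Benjamini-Hochberg adjustment). Differences between signals this low may be compressed, so no fold is given.

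Cyp2c29, which makes epoxides of arachidonic acid and comes before Cyp2c39 in chromosomal order, did not share the pattern of Cyp2c39. It read 11.1, 9.99 and 10.6 in Stat3Fl/Fl, 11.43, 11.55 and 11.56 in Stat3Δhc, 10.93, 11.42 and 11.11 in Stat3Fl/FlMdr2-/-, and 11.09, 11.01 and 10.24 in Stat3Δhc Mdr2-/-. The 3 Stat3Δhc arrays were the highest of the 12, and the other 3 genotypes overlapped. Its Mdr2 difference was 0.59 (SE 0.26) in floxed liver, where arrays overlapped, and -0.73 (SE 0.26) in Stat3Δhc liver, where they did not.

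Cyp2c50 and Cyp2c54 lie beside each other, and both oxidise arachidonic and linoleic acid. Cyp2c50 read 9.41, 7.89 and 8.04 in Stat3Fl/Fl, 9.68, 9.45 and 9.75 in Stat3Δhc, 8.87, 9.73 and 10.02 in Stat3Fl/FlMdr2-/-, and 10.44, 10.3 and 9.83 in Stat3Δhc Mdr2-/-. Cyp2c54 read 6.88, 6.38 and 6.16, then 6.72, 6.62 and 6.68, then 6.29, 7.24 and 7.74, then 8.12, 7.75 and 7.26 in the same order of genotypes. For both genes Stat3Δhc Mdr2-/- lay wholly above Stat3Δhc, by 0.56 (SE 0.36) and 1.04 (SE 0.31). In floxed liver the Mdr2 differences were 1.09 (SE 0.36) and 0.62 (SE 0.31), and the arrays overlapped, with array A of Stat3Fl/FlMdr2-/- below array A of Stat3Fl/Fl for both genes.

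Cyp2c37, which hydroxylates arachidonic acid, differed between the Stat3 genotypes, while its means with and without Mdr2 were close. It read 10.86, 10.95 and 10.77 in Stat3Fl/Fl and 11.54, 11.48 and 11.47 in Stat3Δhc. On the knockout it read 10.71, 11.2 and 10.7 in Stat3Fl/FlMdr2-/- and 11.47, 11.52 and 11.14 in Stat3Δhc Mdr2-/-. Its Mdr2 differences were 0.01 and -0.12 (SE 0.13 each), with overlapping arrays in both.

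Cyp2c55, a hydroxylase best known from colon, read 7.54, 6.99 and 7.4 in Stat3Fl/Fl, 7.83, 7.89 and 8.24 in Stat3Δhc, 8.04, 8.18 and 7.81 in Stat3Fl/FlMdr2-/-, and 7.17, 8.14 and 7.7 in Stat3Δhc Mdr2-/-. Stat3Fl/Fl was the lowest genotype, and its arrays overlapped only those of Stat3Δhc Mdr2-/-. With Mdr2 loss it was 0.7 higher (SE 0.21) in floxed liver without overlap, and -0.32 (SE 0.21) in Stat3Δhc liver with overlap. The mean of 9 intestinal epithelium genes was 6.13 to 6.46 without the Mdr2 knockout and 6.14 to 6.5 with it.

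Cyp2c44, an epoxygenase that lies outside the cluster, was lowest in Stat3Δhc, unlike most members. It read 10.19, 10.79 and 10.86 in Stat3Fl/Fl, 10.09, 9.83 and 10 in Stat3Δhc, 10.5, 10.52 and 10.8 in Stat3Fl/FlMdr2-/-, and 10.82, 11.17 and 10.67 in Stat3Δhc Mdr2-/-. Stat3Δhc held the 3 lowest arrays, and the other 3 genotypes overlapped. The Mdr2 difference was 0 (SE 0.17) in floxed and 0.91 (SE 0.17) in Stat3Δhc liver.

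Cyp2c70, the muricholic acid enzyme, varied least. It read 12.69, 12.33 and 12.48 in Stat3Fl/Fl, 12.67, 12.67 and 12.63 in Stat3Δhc, 12.66, 12.81 and 12.47 in Stat3Fl/FlMdr2-/-, and 12.6, 12.41 and 12.31 in Stat3Δhc Mdr2-/-. Neighbours in the order of its genotype means overlapped throughout. Its Mdr2 differences were 0.15 and -0.21 (SE 0.11 each), and in Stat3Δhc liver the arrays did not overlap. The cluster shared by Cyp2c40 and 3 other Cyp2c genes ran from 11.19 to 11.42 in Stat3Fl/Fl, 10.88 to 10.97 in Stat3Δhc, 10.88 to 11.31 in Stat3Fl/FlMdr2-/- and 10.09 to 10.72 in Stat3Δhc Mdr2-/-, and cannot be assigned to Cyp2c40 alone.

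Across the members, arrays did not overlap with Mdr2 loss for 2 of 8 tested members in floxed liver (Cyp2c39 and Cyp2c55, both higher), beside 33.3% of all genes tested (18.2% higher). Without array A of Stat3Fl/Fl this count was 4, and without array A of Stat3Fl/FlMdr2-/- it was 5. In Stat3Δhc liver it was 6 of 8, with Cyp2c39, Cyp2c44, Cyp2c50 and Cyp2c54 higher and Cyp2c29 and Cyp2c70 lower, beside 37.2% (14.9% higher and 22.3% lower). The median difference of the 8 members was 0.6 in floxed liver and 0.22 in Stat3Δhc liver, beside 0 and -0.02 over all genes. These counts come from the contrast that chose Cyp2c39, and nothing is read from them. The Mdr2 and Stat3 comparisons share their arrays.

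**Figure D2:**
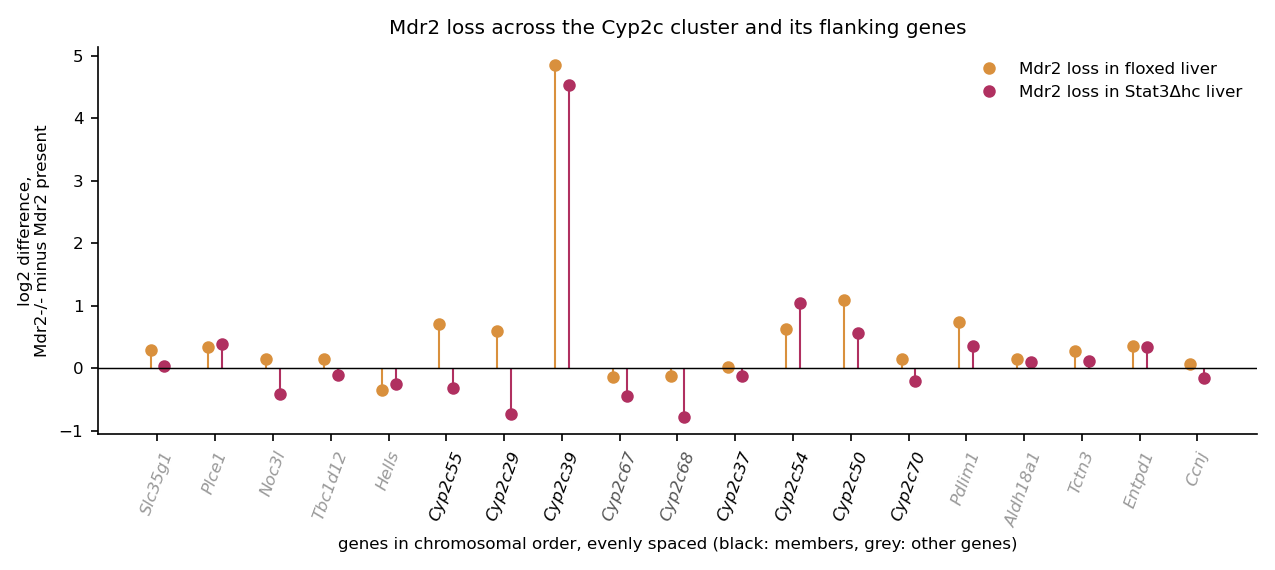
Log2 difference with Mdr2 loss (vertical axis) in floxed and in Stat3Δhc liver for the tested genes of the Cyp2c cluster and 5 flanking genes on each side, evenly spaced in chromosomal order (horizontal axis). Cyp2c39 stands at 4.86 and 4.54, and the flanking genes lie between -0.42 and 0.74. Cyp2c38, below the filter on low signals, is not drawn.

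Along the cluster, Cyp2c39, on whose Mdr2 difference the family was selected, had the largest such difference of the tested genes. Its neighbour Cyp2c38, below the filter, had the next largest, 1.3 and 2.75 in the fit without the filter. The nearest tested genes on either side, Cyp2c29 and Cyp2c67, differed by 0.59 and -0.15 in floxed and by -0.73 and -0.44 in Stat3Δhc liver. Cyp2c68 differed by -0.12 and -0.78. The 10 tested genes that flank the cluster lay between -0.35 and 0.74 in floxed and between -0.42 and 0.39 in Stat3Δhc liver.

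In the first tested comparison, Stat3 deletion without the Mdr2 knockout, Cyp2c37 rose and was the only tested member that passed the test. Cyp2c37 was 1.56-fold higher in Stat3Δhc (log2 difference 0.64, SE 0.13, 95% interval 0.35 to 0.93, adjusted p = 0.0268, limma with Benjamini-Hochberg adjustment over 13977 genes), with all 3 Stat3Δhc arrays above all 3 Stat3Fl/Fl arrays. That is 1 of 8 members, beside 2.58% of all genes tested (1.51% higher). The call was lost when any of 5 arrays was left out, each of the 3 Stat3Δhc arrays and arrays B and C of Stat3Fl/Fl, with adjusted p between 0.075 and 0.146. Cyp2c50 had a difference of 1.18 (SE 0.36, adjusted p = 0.102), Cyp2c39 1.03 (SE 0.36, adjusted p = 0.162), Cyp2c29 0.95 (SE 0.26, adjusted p = 0.0715) and Cyp2c55 0.68 (SE 0.21, adjusted p = 0.119). These 4 did not pass the test, although in each the Stat3Δhc arrays lay above the Stat3Fl/Fl arrays. Cyp2c44 had the only negative difference, -0.64 (SE 0.17, adjusted p = 0.0728), without overlap. Cyp2c54 and Cyp2c70 overlapped, with 0.2 (SE 0.31, adjusted p = 0.813) and 0.16 (SE 0.11, adjusted p = 0.557).

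The arrays thus did not overlap for 6 of 8 members (5 higher, 1 lower), beside 25.1% of all genes tested (14.3% higher and 10.8% lower). The median difference of the members was 0.66, beside -0.01 over all genes. The 3 Stat3Fl/Fl arrays differed among themselves: array A was the highest of the 3 for 6 of the 9 measured members and array B the lowest for 5. Their hepatocyte mean was 12.49, 12.22 and 12.38 in arrays A, B and C, their muscle mean 8.4, 9.14 and 8.59, and their pancreas mean 5.53, 8.72 and 7.19, and the Stat3Δhc arrays had a higher hepatocyte mean of 12.6 to 12.65, a muscle mean of 8.44 to 8.83 and a pancreas mean of 5.77 to 9.96. Of the 12 hepatocyte genes, 6 were higher and 1 lower in Stat3Δhc without overlap. Cps1 (0.44, adjusted p = 0.0495, limma) and Hpd (0.49, adjusted p = 0.0228, limma) rose. The median of the 12 was 0.12, beside -0.01 over all genes. Alb (-0.01), Ttr (-0.05), Apoa1 (-0.06) and Trf (-0.09) were close to 0. Tat (0.86), Tdo2 (0.7) and Serpina1d (0.58) were higher without overlap but did not pass the test. The part of these values in the Stat3 differences was not tested. Without array A of Stat3Fl/Fl, Cyp2c29 (1.22, adjusted p = 0.0131), Cyp2c44 (-0.85, adjusted p = 0.00654) and Cyp2c50 (1.66, adjusted p = 0.00498) passed the test as well. Without array C of Stat3Δhc Mdr2-/-, which is not in this comparison but in its estimate of spread, Cyp2c39 and Cyp2c29 passed it (adjusted p = 0.0403 and 0.0381).

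**Figure D3:**
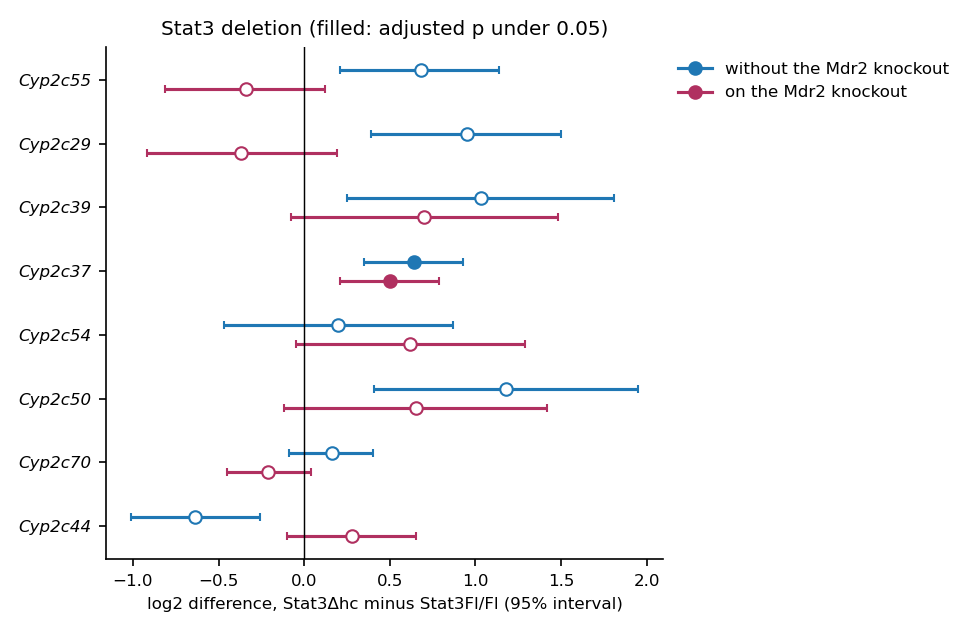
Log2 difference with Stat3 deletion (horizontal axis, point and 95% interval) for the 8 tested members, without the Mdr2 knockout and on it. Filled points, those with adjusted p under 0.05, are Cyp2c37 in both comparisons (0.64 and 0.5).

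On the Mdr2 knockout, Cyp2c37 was again the member that passed the test, 1.42-fold higher in Stat3Δhc Mdr2-/- than in Stat3Fl/FlMdr2-/- (0.5, SE 0.13, 95% interval 0.21 to 0.79, adjusted p = 0.0467, limma). This is 1 of 8, beside 5.77% of all genes tested (1.87% higher). Array B of Stat3Fl/FlMdr2-/- (11.2) lay above array C of Stat3Δhc Mdr2-/- (11.14), so the groups overlapped, and leaving out any 1 array other than these left an adjusted p between 0.0553 and 0.142. Cyp2c39 differed by 0.7 (SE 0.36, adjusted p = 0.218), Cyp2c50 by 0.65 (SE 0.36, adjusted p = 0.245) and Cyp2c54 by 0.62 (SE 0.31, adjusted p = 0.205). The Cyp2c39 value turned on single arrays of Stat3Δhc Mdr2-/-: without array A it was 0.22 (adjusted p = 0.591), and without array C it was 1.2 and passed the test (adjusted p = 0.0311). With the Xist and Y-linked pattern as a covariate it was 1.68 (adjusted p = 0.0853). The remaining members had smaller differences: Cyp2c44 0.28 (adjusted p = 0.303), Cyp2c70 -0.21 (adjusted p = 0.245), Cyp2c55 -0.34 (adjusted p = 0.302) and Cyp2c29 -0.37 (adjusted p = 0.353).

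Arrays overlapped for all 8 tested members in this comparison, beside 28.6% of all genes whose arrays did not. The members' median difference was 0.39, beside -0.03 over all genes. The Stat3Δhc Mdr2-/- arrays were spread widely, with array A the highest of the 3 for 6 of the 9 measured members and array C the lowest for 8. Array A has the Xist pattern and array C does not, while their hepatocyte means were 12.3 and 12.18, and the part of either in the spread was not tested. With the Xist and Y-linked pattern as a covariate, the difference of Cyp2c37 was 0.6 with an adjusted p of 0.273.

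The question whether the Stat3 difference depended on Mdr2 was tested as the difference between both comparisons, and 0 of 8 members passed (limma, adjusted p under 0.05), beside 0.0715% of all genes tested. At an unadjusted p under 0.05 there were 4, beside 16.9% of all genes. Cyp2c29 went from 0.95 without to -0.37 on the knockout (difference -1.32, SE 0.36, 95% interval -2.1 to -0.53, adjusted p = 0.218). Cyp2c55 went from 0.68 to -0.34 (-1.02, SE 0.3, interval -1.68 to -0.36, adjusted p = 0.224). Cyp2c44 went from -0.64 to 0.28 (0.91, SE 0.25, interval 0.38 to 1.44, adjusted p = 0.207), and Cyp2c70 from 0.16 to -0.21 (-0.36, SE 0.16, adjusted p = 0.282). Without array A of Stat3Fl/Fl, Cyp2c44 passed the test (1.12, adjusted p = 0.0371). For Cyp2c37 the difference was -0.14 (interval -0.55 to 0.27, adjusted p = 0.7), and for Cyp2c39 -0.32 (interval -1.43 to 0.78, adjusted p = 0.739), and both intervals include 0. Cyp2c50 and Cyp2c54 differed by -0.53 (adjusted p = 0.563) and 0.42 (adjusted p = 0.599).

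**Figure D4:**
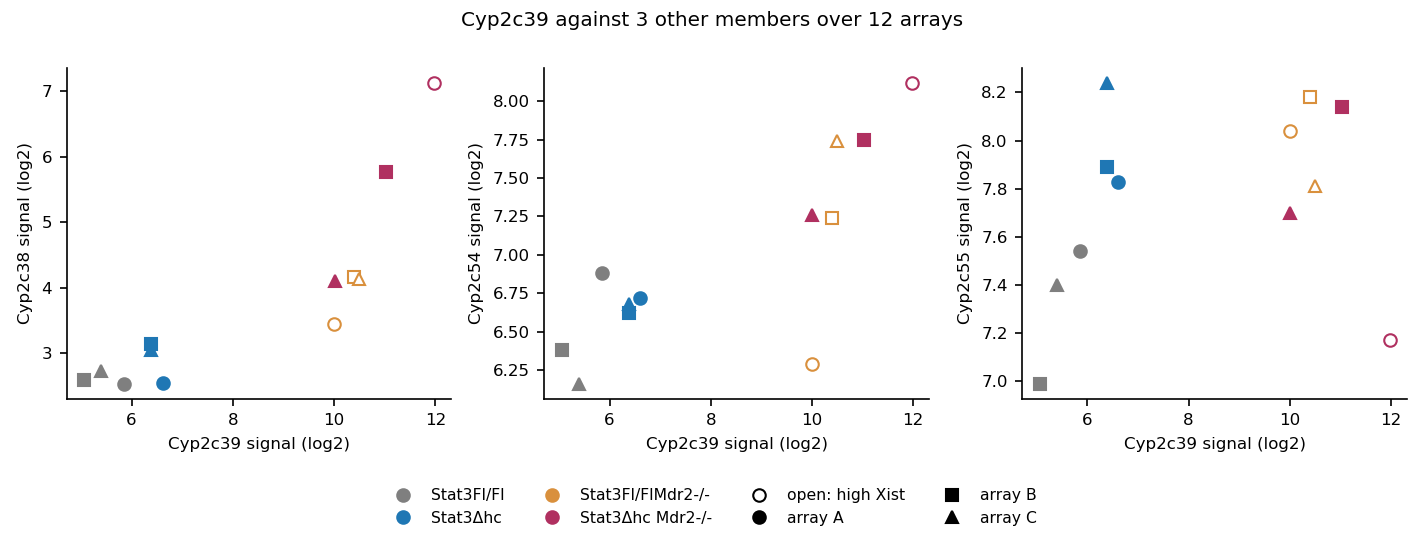
Log2 signal of Cyp2c38, Cyp2c54 and Cyp2c55 (vertical axes) against that of Cyp2c39 (horizontal axis) on the 12 arrays, coloured by genotype, with open symbols for arrays of high Xist. Array A of Stat3Δhc Mdr2-/- is the highest for Cyp2c39 (11.97), Cyp2c38 (7.13) and Cyp2c54 (8.12) and the second lowest for Cyp2c55 (7.17).

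With the 4 genotypes pooled, some members varied together from array to array. As deviations from the genotype means over 12 arrays, Cyp2c39 and Cyp2c38 had a Pearson r of 0.87, Cyp2c39 and Cyp2c29 0.79, Cyp2c39 and Cyp2c54 0.71, Cyp2c50 and Cyp2c54 0.85, and Cyp2c29 and Cyp2c70 0.8. With Cyp2c39, Cyp2c55 had -0.26 and Cyp2c44 -0.01. These are descriptions of 12 arrays that share genotype, RNA quality and tissue makeup, and probes of similar genes may share targets. Since the values pool the 4 genotypes, those with wide deviations weigh most. In Stat3Δhc Mdr2-/- the SD was 0.98 for Cyp2c39 and 1.51 for Cyp2c38, the widest of the 4 for both. In Stat3Fl/Fl and in Stat3Δhc, array A was the highest for Cyp2c39 and the lowest for Cyp2c38. In Stat3Δhc, array A was also the lowest for Cyp2c29.

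The genes most like Cyp2c39 over all 12 arrays, outside the family, were Abhd1 (Pearson r 0.981), Dmxl2 (0.978), Lsr (0.975), Acsf2 (0.974) and Apbb3 (0.973). Since the arrays fall into Mdr2-/- and other arrays, r here mostly reports that separation and is given as the measure of likeness, without a p. Abhd1 ran from 6.69 to 7.13 without the knockout and from 8.51 to 8.93 with it. Lsr, the lipolysis-stimulated lipoprotein receptor, ran from 8.77 to 9.05 and from 9.45 to 9.78. None of the 5 had as wide a gap between the Mdr2 genotypes as Cyp2c39, the gene whose Mdr2 difference chose the family.

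The lists of regulators, partners and pathway genes are set beside the 2.58% of all genes called for Stat3 deletion without the knockout and the 5.77% called on it. Of 18 tested transcription factors of P450 genes, 1 rose and 0 fell in each comparison: Nr1i3, which encodes CAR, was 0.63 higher without the knockout (SE 0.14, adjusted p = 0.0358) and 0.75 higher on it (SE 0.14, adjusted p = 0.0101). The list's median was 0.09 and -0.08. Of 9 CAR and PXR target enzymes, 2 rose without the knockout, the glutathione transferase Gstm3 (1.03, SE 0.18, adjusted p = 0.0102) and the P450 Cyp3a25 (0.56, SE 0.12, adjusted p = 0.0349), and 0 fell. On the knockout 1 rose, Cyp2b13 (1.19, SE 0.3, adjusted p = 0.0374), and 0 fell. Cyp2b10, a common readout of CAR activity, differed by 0.27 (adjusted p = 0.54) and 0.03 (adjusted p = 0.921). The list's median was 0.35 and 0.19, beside -0.01 and -0.03 over all genes. P450 reductase had no transcript cluster matched to it alone and was not tested. Of 4 other genes listed as electron donors or partners of P450 enzymes, 0 passed in either comparison. Of the Cyp2c genes outside the members, 2 were tested and 0 passed, with Cyp2c67 at -0.63 (adjusted p = 0.0879) and Cyp2c68 at -0.64 (adjusted p = 0.055) on the knockout.

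Of 10 tested genes of arachidonic acid epoxides and hydroxylation, 1 rose in each comparison and 0 fell. It was Ephx2, soluble epoxide hydrolase, which breaks down the epoxides that Cyp2c enzymes make (0.54, SE 0.1, adjusted p = 0.0172 and 0.47, SE 0.1, adjusted p = 0.0221). Of 14 tested genes of retinoid metabolism, 0 passed without the knockout and 1 fell on it, the retinol esterifying enzyme Lrat (-0.93, SE 0.14, adjusted p = 0.00426). Aldh1a1, which makes retinoic acid, had 1.5 (SE 0.38, adjusted p = 0.059) and 1.33 (SE 0.38, adjusted p = 0.0595), without overlap of the arrays in either. Of 13 bile acid synthesis genes, 4 rose and 0 fell without the knockout, and 5 rose and 1 fell on it. Baat, which joins bile acids to taurine, was 1.36 higher (SE 0.21, adjusted p = 0.00594) and 0.85 higher (SE 0.21, adjusted p = 0.0351), and Cyp39a1 was 1.31 higher without the knockout (SE 0.16, adjusted p = 0.00119). The sterol hydroxylase Cyp8b1 was 0.89 higher on it (SE 0.23, adjusted p = 0.0398). Cyp27a1, which oxidises the cholesterol side chain, was 1.11 higher (SE 0.14, adjusted p = 0.00162) and 0.71 higher (SE 0.14, adjusted p = 0.0154), while Cyp2c70, the P450 of the family in that pathway, had 0.16 and -0.21.

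Since several Cyp2c genes differ between adult males and females, lists of sex-biased liver genes were followed as well. The lists are of adult liver, while these mice were aged 2 weeks, and whether the genes mark sex at that age was not tested. Of 7 tested female-biased genes, 0 passed without the knockout, and on it Cyp2b13 rose while the P450 Cyp3a16 (-2.08, SE 0.24, adjusted p = 0.000946) and the hydroxy acid oxidase Hao2 (-0.92, SE 0.2, adjusted p = 0.0203) fell. For Cyp3a16 the Stat3 difference also differed between the Mdr2 genotypes (-2.23, SE 0.34, adjusted p = 0.038), the 1 gene of these lists and members that passed this test. Of 8 tested male-biased genes, 0 passed without the knockout, and on it Gstp1 rose (0.5, SE 0.13, adjusted p = 0.0406) while the transporter Slco1a1 (-1.84, SE 0.35, adjusted p = 0.0117) and Ugt2b1 (-0.84, SE 0.18, adjusted p = 0.0184) fell. With Mdr2 loss, the median difference of the male-biased genes was 0.1 in floxed and -0.28 in Stat3Δhc liver, and that of the female-biased genes -0.4 and -0.48, beside 0 and -0.02 over all genes. Slco1a1 had the largest difference of the male-biased genes, 5.15 and 3.58 (SE 0.35 each). Gstp1 (0.42 and 0.99) and Cyp7b1 (0.46 and 0.22) were also positive in both, and C6 had 0.42 and -0.14. Ugt2b1, Nudt7, Cyp2d9 and Cyp2u1 had negative differences in both. Of the 8, 4 were higher and 0 lower without overlap in floxed liver, beside 18.2% higher of all genes. In Stat3Δhc liver 2 were higher and 3 lower, beside 14.9% and 22.3%. All arrays of Stat3Fl/FlMdr2-/- but only array A of Stat3Δhc Mdr2-/- had high Xist. Y-linked Uty differed by 2.96 with Stat3 deletion on the knockout (SE 0.71, adjusted p = 0.03, limma). Stat3 genotype and Xist pattern are thus partly mixed in that comparison and in the difference between both comparisons. The part of sex in the values of the sex-biased genes was not tested. For the Cyp2c values of the Mdr2-/- arrays it was not tested beyond the covariate and the array left out above.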

How the data were processed

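The log2 values of 35556 transcript clusters were deposited by the authors in 1 table of 12 arrays after RMA (background correction, quantile normalization and probe summary), as the submitters' processing notes name it without a version. Quantile normalization forces arrays to 1 distribution, so a shift of all genes could not be seen. GEO's platform annotation gave 1 gene to 21789 clusters, several to 1621 and none to 12146. Each of the 19938 genes was taken by its cluster of highest mean. The 13977 genes above the 40th percentile of an array in at least 3 arrays were fitted with limma 3.58.1 (R 4.3.3, lmFit and eBayes) on all 12 arrays, with 8 residual and 4.82 prior degrees of freedom, Benjamini-Hochberg adjustment at 0.05 and 95% intervals. The script was checked on simulated data. With 3 arrays per genotype, the median standard error over all genes tested was 0.11 for a difference between 2 genotypes. For the members it ran from 0.11 (Cyp2c70) to 0.36 (Cyp2c39 and Cyp2c50).

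The members, the 16 gene lists (9 of pathways, 7 of markers, 180 genes) and the tests were chosen with earlier results of these data known. Named were all members, up to 3 passing genes of a list by size of change, and the 5 genes most correlated with Cyp2c39. Outside this rule and after their values were seen, Aldh1a1, Cyp2b10, Cyp2c67 and Cyp2c68 were named for their role, place or direction. So were Nudt7, Cyp2d9, Cyp2u1, Cyp7b1, C6, Alb, Ttr, Apoa1, Trf, Tat, Tdo2 and Serpina1d for their direction, and Slco1a1 and Xist for their Mdr2 differences. Promoter windows are RefSeq's, aligned globally with Biopython 1.88. Likeness was taken from promoters, since proteins were not used here. Probe sequences were not used here either.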

Additional observations from a re-analysis of the deposited data

Results flagged for a closer look

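Cyp2c38 lay below the filter on low signals and so outside the tests, yet its mean was higher in both Mdr2-/- genotypes than in any Stat3Fl/Fl array (2.53 to 2.73). It was 3.91 ± 0.41 (SD, n = 3) in Stat3Fl/FlMdr2-/- and 5.66 ± 1.51 (SD, n = 3) in Stat3Δhc Mdr2-/-, where the arrays ran from 4.1 to 7.13.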

How the results depend on the processing

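The settings tried were another filter (none, or the 60th percentile), averaging all clusters of a gene, rescaling by cyclic loess or to equal medians, eBayes with trend and robust options, array weights, a fit of only the groups compared, the letter as a replicate block, the Xist and Y-linked pattern as a covariate, and leaving out each array. Of 520 values for the 24 tested member differences, 483 kept direction and side of the threshold, 19 lost a call, 15 gained one and 3 changed sign. Across the genotypes the letters showed no common pairing (correlations of -0.41 to 0.37 over 18 same-letter pairs, 3 of them over 0.1). Between Stat3Δhc and Stat3Fl/Fl the correlations were 0.27, 0.07 and 0.37 for letters A, B and C. Between Stat3Δhc and Stat3Δhc Mdr2-/- they were -0.05, -0.22 and -0.41. A pairing of the first 2 genotypes was not examined further than by the block. With the replicate block the count of called members stayed at 1, 1 and 0, and Cyp2c37 had 0.64 (adjusted p = 0.0217) and 0.5 (adjusted p = 0.0406, limma). Without the knockout, 1 member was called for Stat3 deletion, against 6 with array weights, 2 with only the groups compared, and 0 to 4 without 1 array. With array weights these were Cyp2c29, Cyp2c37, Cyp2c39, Cyp2c44, Cyp2c50 and Cyp2c55. On the knockout, the 1 call of Cyp2c37 became 0 with no filter (adjusted p = 0.0613), with median centring (0.057), with only the groups compared (0.133) and with the covariate (0.273), and the count was 0 to 2 without 1 array. For the difference of the Stat3 effects, 0 calls became 2 with array weights (Cyp2c29, adjusted p = 0.0396, and Cyp2c44, adjusted p = 0.0214) and 0 to 1 without 1 array. Its sign turned for Cyp2c39 with the covariate (0.65) and without array C of Stat3Δhc Mdr2-/- (0.18, in a range of -0.81 to 0.18 without 1 array), and for Cyp2c37 without array B of Stat3Fl/FlMdr2-/- (0.03, in a range of -0.22 to 0.03). Members without overlap for Mdr2 loss in floxed liver numbered 2, and 2 to 5 without 1 array. Of 256 values for the 16 Mdr2 differences, 6 moved by more than the spread between arrays. With the covariate Cyp2c39 was 3.41, Cyp2c29 0.13, Cyp2c54 0, Cyp2c55 1.45 and Cyp2c70 -0.09 in floxed liver, and with array weights Cyp2c55 was 0.09 in Stat3Δhc liver. The cause of these changes was not tested. No scaling moved the median of all genes by over 0.1.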
